A study of Mus musculus with 4 samples.

Results

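The inhibitors of cyclin-dependent kinases (CDKs) and the p53-Rb genes were followed in mouse retinal cells sorted at postnatal day 12 (P12). The group was chosen by gene name and held 10 of 21828 genes: the INK4 genes Cdkn2a, Cdkn2b, Cdkn2c and Cdkn2d, the CIP/KIP genes Cdkn1a, Cdkn1b and Cdkn1c, and Rb1, Trp53 and Mdm2. All 10 had an OK status in all libraries, so none was left out. Retinas were dissociated, stained for Cd73 and sorted by flow cytometry. The Cd73-positive fraction (Cd73P) is mainly rod photoreceptors and their precursors. The Cd73-negative fraction (Cd73N) holds the other neurons and the Müller glia. The study's methods name ICR mice but state no strain for the knockout mice and their littermates. Each fraction was taken from mice labelled wildtype (WT), which were normal littermates, and from mice labelled Ezh2-cKO (Ezh2-CKO below), in which floxed Ezh2 was deleted by Cre under Dkk3 control in retinal progenitor cells from an early embryonic stage. There was thus 1 poly(A) RNA library for each of 4 groups, and the number of P12 animals behind a library was not given in the sources used here.

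With single libraries no difference below could be checked against replicates, and p-values are not given. Levels are FPKM, fragment numbers scaled to exon length and to the mapped total of the library. Differences are on the log2(FPKM + 1) scale, which understates the change of low genes, and a gene was called higher or lower past a 1.5-fold difference on that scale. Each standard error (SE) was taken from the deposited FPKM bounds and covers counting error within a library only. Depth relative to the Cd73N WT library, read from the steps between the lowest FPKM values, was 1.20 in Cd73N Ezh2-CKO, 0.991 in Cd73P WT and 1.03 in Cd73P Ezh2-CKO. Nt5e, which encodes Cd73, was at 0.84 FPKM in WT and 0.61 in Ezh2-CKO among Cd73N cells, against 125 and 123 FPKM among Cd73P cells. Ezh2 was at 14.1 FPKM in Cd73N WT and 15.9 in Cd73N Ezh2-CKO, against 5.38 and 3.45 FPKM in Cd73P. In Cd73N the knockout label was thus not matched by a lower Ezh2 level, and a gene-level value cannot show whether a floxed exon was lost. Ezh2-CKO below means the libraries labelled so. Those libraries also had other sex-linked levels than WT, with a summed level of 4 Y-linked genes of 0.72 FPKM against 26.8 in Cd73N and of 0.50 against 27.9 in Cd73P. The part of sex in the differences below cannot be told apart from that of genotype.

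INK4 proteins bind Cdk4 and Cdk6 and keep them from pairing with D-type cyclins, whereas CIP/KIP proteins bind a wider range of cyclin-CDK complexes. Both keep the Rb protein in the state that holds back E2F factors and entry into S phase. Cdkn2a encodes, from separate first exons, the CDK inhibitor p16INK4a and the unrelated protein ARF, which binds Mdm2, the ubiquitin ligase that turns over p53. Cdkn1a is a classical target of p53. The Cdkn2a-Cdkn2b locus is a well known site of Polycomb repression, in which PRC2, through its catalytic subunits Ezh2 and Ezh1, methylates histone H3 at lysine residue K27. In the developing retina, Cdkn1b and Cdkn1c act as progenitors leave the cell cycle, and Rb1 is the gene lost in retinoblastoma.

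The sequences that precede the genes with the widest genotype differences are shown first. RefSeq promoter windows (GRCm38.p6) were on hand for 8 of the 10 genes, and the 250 bases before each start were placed on mm9, the build of the deposited tables, by exact match. All 11 windows of these genes had a match. Cdkn2a has separate starts for ARF (upstream) and p16INK4a (downstream). Capitals mark an E2F-type site, searched as TTTGGCGC, TTTCCCGC, TTTCGCGC or TTTGCCGC, a cyclic AMP response element (TGACGTCA) and a pair of p53 half-site cores (CATG, any 6 bases, CATG). An AP-1 site (TGANTCA) was searched as well, and both strands were read for every motif. No match of 1 motif overlapped that of another.
Cdkn2a, upstream start, mm9 chr4:88940524-88940773, minus strand: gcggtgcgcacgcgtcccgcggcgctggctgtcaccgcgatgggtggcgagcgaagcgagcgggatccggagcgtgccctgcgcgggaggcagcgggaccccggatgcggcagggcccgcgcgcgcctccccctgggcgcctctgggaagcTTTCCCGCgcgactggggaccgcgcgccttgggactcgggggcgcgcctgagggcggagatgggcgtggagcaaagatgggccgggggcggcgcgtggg
Cdkn2a, downstream start, mm9 chr4:88928097-88928346, minus strand: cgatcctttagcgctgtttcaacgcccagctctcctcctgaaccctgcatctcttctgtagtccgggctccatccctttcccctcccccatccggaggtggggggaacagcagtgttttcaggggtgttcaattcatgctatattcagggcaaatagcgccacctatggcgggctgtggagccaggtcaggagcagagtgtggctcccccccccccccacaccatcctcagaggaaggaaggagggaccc
Cdkn2b, mm9 chr4:88956942-88957191, minus strand: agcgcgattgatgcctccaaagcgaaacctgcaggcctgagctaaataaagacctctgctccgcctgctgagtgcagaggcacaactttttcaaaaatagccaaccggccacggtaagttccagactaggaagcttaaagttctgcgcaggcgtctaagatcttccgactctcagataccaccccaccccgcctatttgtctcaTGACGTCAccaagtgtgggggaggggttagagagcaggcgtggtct
Cdkn1a, upstream start, mm9 chr17:29227674-29227923, plus strand: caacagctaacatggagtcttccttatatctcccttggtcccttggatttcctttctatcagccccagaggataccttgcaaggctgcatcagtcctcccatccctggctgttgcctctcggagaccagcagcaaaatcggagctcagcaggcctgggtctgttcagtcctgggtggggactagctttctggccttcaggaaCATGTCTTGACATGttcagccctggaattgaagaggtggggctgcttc
The window of the upstream Cdkn2a start held 40 CpG dinucleotides, more than 98.7% of 32851 windows of that length had, and 1 E2F-type match. The window of the downstream start held 7 CpG and none of the motifs. Cdkn2b had 12 CpG and 1 cyclic AMP response element. The upstream window of Cdkn1a had 2 CpG and the p53 core pair, which began 48 bases before the start. The other Cdkn1a window had 19 CpG and none of the motifs. Of all windows, 1.86% held an E2F-type match, 1.55% the cyclic AMP response element, 0.49% the p53 core pair and 6.75% the AP-1 letters. None of the other windows of the group (2 of Cdkn2c and 1 each of Cdkn2d, Cdkn1b, Trp53 and Mdm2) held a match, and their CpG counts ran from 6 to 29. Cdkn1c and Rb1 had no window. A match is a description of the letters and not a binding site.

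Cdkn1b, p27, was among the most abundant of the group in all 4 libraries per kilobase, with 42.1 FPKM in Cd73N WT, 38.3 in Cd73N Ezh2-CKO, 38.9 in Cd73P WT and 29.0 in Cd73P Ezh2-CKO. It ranked first in each but Cd73P Ezh2-CKO, where Mdm2 was slightly higher at 30.5 FPKM. At the other end, Cdkn2b and Cdkn2a were the lowest genes of the group in both WT libraries. In Cd73N WT the order below Cdkn1b was Cdkn2d (29.0 FPKM), Rb1 (21.7), Mdm2 (21.1), Trp53 (15.8), Cdkn1c (10.1), Cdkn1a (9.87), Cdkn2c (9.65), Cdkn2a (1.10) and Cdkn2b (0.47). The bounds of Rb1 and Mdm2 overlapped there, as did those of Cdkn1c and Cdkn1a and those of Cdkn1a and Cdkn2c. For 11 of the 40 values of the group the deposited upper bound was below the FPKM itself, so their SE rest on bounds that miss the value.

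**Figure D1:**
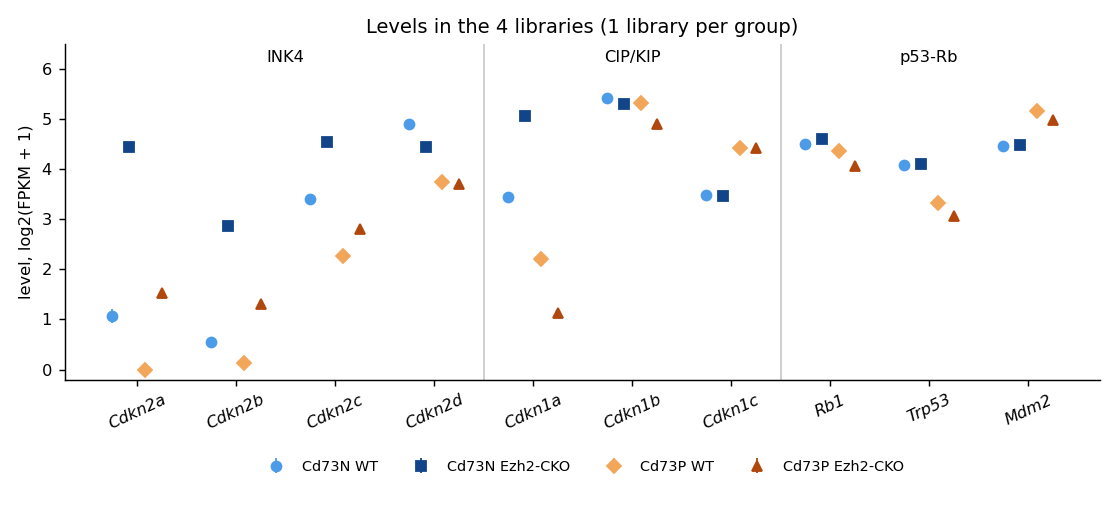
Level of each gene as log2(FPKM + 1) in the 4 libraries, with bars for 1 counting SE (mostly smaller than the symbols); Cdkn2a in Cd73P WT was listed at 0 and has no bar. Cdkn2a, Cdkn2b and Cdkn1a span the widest ranges, from 0 to 20.7, 0.09 to 6.31 and 1.20 to 32.5 FPKM, and Cdkn1b among the narrowest.

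Cdkn2a and Cdkn2b were both higher in Ezh2-CKO, in both fractions. The paper, from its P12 RNA data, described Cdkn2a as de-suppressed in Cd73N but not in Cd73P. The Cd73P call of Cdkn2a here rests on 0 FPKM in WT and 1.87 in Ezh2-CKO. Cdkn2a, at 88920377 to 88940523 of mm9 chromosome 4, had 1.10 FPKM in Cd73N WT, 20.7 in Cd73N Ezh2-CKO, 0 in Cd73P WT and 1.87 in Cd73P Ezh2-CKO. The Cd73N Ezh2-CKO library stood far above the other 3. The log2 difference in Cd73N was 3.37 with an SE of 0.14, which is an 18.8-fold ratio of the FPKM values. Only 0.055% of expressed genes, those that reach 1 FPKM in either library compared, had a larger difference there. The width of the bounds corresponds to about 34 fragments in Cd73N WT, 620 in Cd73N Ezh2-CKO and 65 in Cd73P Ezh2-CKO. The Cd73P difference was 1.52 (SE 0.12), against a value listed at 0, so no fold is given. That table listed 5582 OK rows at 0. Reads of the p16INK4a and ARF transcripts are summed in this gene-level value, so it does not show which product moved.

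Cdkn2b encodes p15INK4b and lies 11674 bases from Cdkn2a, at 88952198 to 88956941 of chromosome 4. It was at 0.47 FPKM in Cd73N WT, 6.31 in Cd73N Ezh2-CKO, 0.09 in Cd73P WT and 1.47 in Cd73P Ezh2-CKO. Both Ezh2-CKO libraries were above both WT libraries. The log2 difference was 2.31 (SE 0.11) in Cd73N and 1.18 (SE 0.11) in Cd73P. The WT values correspond to about 25 fragments in Cd73N and 6 in Cd73P. Mtap and Dmrta1 are listed beside this locus on chromosome 4. Mtap, which encodes an enzyme of methionine salvage, went from 2.69 to 5.03 FPKM in Cd73N, a log2 difference of 0.71 (SE 0.094), past the threshold. Its Cd73P values were 0.48 and 0.69 FPKM. Dmrta1, a gene of the doublesex-related family, was at 0.012 FPKM in Cd73N WT, 0.22 in Cd73N Ezh2-CKO and 0.018 in both Cd73P libraries. Its Cd73N difference of 0.27 (SE 0.037) was under the threshold with a pseudocount of 1 and past it with 0.1.

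Cdkn2c, p18INK4c (chromosome 4, 109333481 to 109337977), was at 9.65 FPKM in Cd73N WT, 22.4 in Cd73N Ezh2-CKO, 3.83 in Cd73P WT and 6.03 in Cd73P Ezh2-CKO. It was higher in Ezh2-CKO in Cd73N, with a difference of 1.13 (SE 0.081). The Cd73P difference of 0.54 (SE 0.13) stayed under the threshold, although the ratio of the FPKM values was 1.57.

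Cdkn2d, p19INK4d, was the INK4 gene with the highest level in both WT libraries and the only one not called higher in Ezh2-CKO in Cd73N. Summed over its rows it was at 29.0 FPKM in Cd73N WT, 20.9 in Cd73N Ezh2-CKO, 12.4 in Cd73P WT and 12.0 in Cd73P Ezh2-CKO. The differences were -0.46 (SE 0.062) and -0.04 (SE 0.079), neither past the threshold. Its mRNA was listed at 2 places on chromosome 9, 21092908 to 21095653 and 123836860 to 123839607, which mm9 holds in opposite orientation with 99.8% identity (2743 of 2748 aligned positions). GENCODE names the second copy Gm4694. The rows were at 15.0 and 14.0 FPKM in Cd73N WT and at 6.37 and 6.02 in Cd73P WT. Reads that fit both copies cannot be assigned, so the split between the rows is uncertain, and the sum is given as the level.

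Cdkn1a, p21, moved in opposite directions in the fractions. It lies on chromosome 17 (29227931 to 29237667) and was at 9.87 FPKM in Cd73N WT, 32.5 in Cd73N Ezh2-CKO, 3.60 in Cd73P WT and 1.20 in Cd73P Ezh2-CKO. The highest and the lowest of its values were thus both in Ezh2-CKO libraries. The difference was 1.62 (SE 0.063) in Cd73N, a 3.29-fold ratio, and -1.07 (SE 0.11) in Cd73P, where Ezh2-CKO was at 33.2% of WT. In Cd73N, 1.61% of expressed genes had a larger difference. Most bipolar and cone markers were also lower in Cd73P Ezh2-CKO, as given below, and their part in the Cdkn1a value was not tested.

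Cdkn1b (chromosome 6, 134870419 to 134875543) had differences between genotypes of -0.13 (SE 0.036) in Cd73N and -0.41 (SE 0.043) in Cd73P, neither past the threshold. Cdkn1c, p57, an imprinted inhibitor (chromosome 7, 150644244 to 150646955), measured 10.1 FPKM in Cd73N WT, 10.02 in Cd73N Ezh2-CKO, 20.3 in Cd73P WT and 20.5 in Cd73P Ezh2-CKO. Its genotype differences were -0.02 (95% interval -0.16 to 0.12, counting error only) and 0.01 (-0.11 to 0.13). Cdkn1c passed the threshold between fractions, as given below, and not between genotypes.

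None of the p53-Rb genes passed the threshold between genotypes. Trp53 (chromosome 11, 69393861 to 69405375), which encodes p53, was at 15.8 FPKM in Cd73N WT, 16.1 in Cd73N Ezh2-CKO, 9.02 in Cd73P WT and 7.43 in Cd73P Ezh2-CKO. Mdm2 (chromosome 10, 117125961 to 117147772) measured 21.1, 21.5, 34.7 and 30.5 FPKM in the same order. The genotype differences in Cd73N were 0.02 (95% interval -0.10 to 0.15) for Trp53 and 0.03 (-0.07 to 0.12) for Mdm2. In Cd73P they were -0.25 (SE 0.081) and -0.18 (SE 0.038). Rb1 (chromosome 14, 73595309 to 73725598) was at 21.7, 23.5, 19.5 and 15.6 FPKM, with differences of 0.11 (SE 0.036) in Cd73N and -0.30 (SE 0.044) in Cd73P. The GENCODE annotation of mm9 places Lpar6 on the opposite strand within the Rb1 interval and Rcbtb2 across its edge, and reads of these genes cannot be told apart from Rb1 where exons overlap, since the library protocol as described does not keep strand.

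Of the 10 genes, 4 were higher in Cd73N Ezh2-CKO (Cdkn2a, Cdkn2b, Cdkn1a and Cdkn2c) and 0 were lower. Over all genes tested in this comparison, 7.18% were higher and 1.71% lower, and of the expressed genes 11.6% and 2.87%. In Cd73P Ezh2-CKO 2 of the 10 genes were higher (Cdkn2a and Cdkn2b) and 1 was lower (Cdkn1a), beside 2.26% and 2.39% of all genes tested and 4.31% and 4.54% of expressed genes. The median difference of the 10 genes was 0.07 in Cd73N and -0.11 in Cd73P, beside -0.04 for expressed genes in each fraction. For Cdkn1a the Cd73P difference was lower than the Cd73N difference by a log2 value of -2.69 (SE 0.12). The same gap was -0.59 (SE 0.15) for Cdkn2c. With 1 library per group these gaps were not tested. For Cdkn2a and Cdkn2b, which were near 0 in Cd73P WT, the gap depended on the pseudocount. With a pseudocount of 0.1 the genotype difference of Cdkn2a was 4.11 in Cd73N and 4.30 in Cd73P, against 3.37 and 1.52 with a pseudocount of 1. The FPKM ratio of Cdkn2b was 13.4 in Cd73N and 16.0 in Cd73P. No order of the fractions is therefore read from the differences of either gene.

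**Figure D2:**
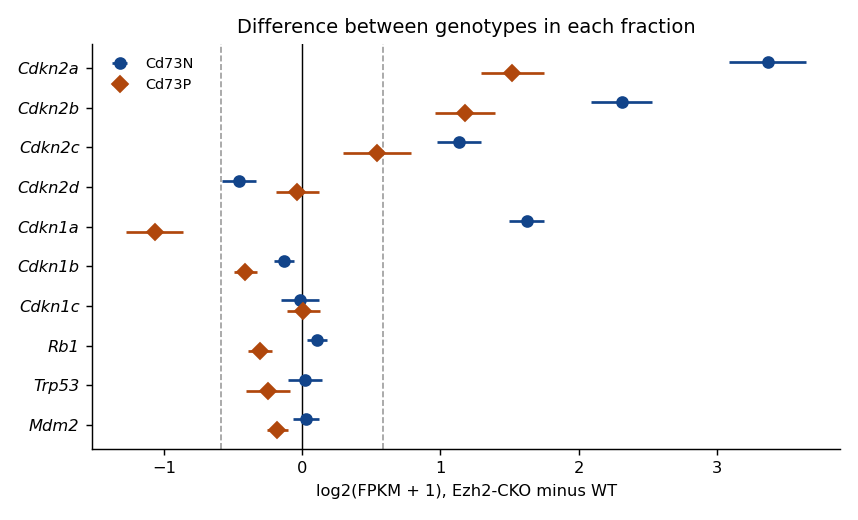
Difference between genotypes, log2(FPKM + 1) in Ezh2-CKO minus WT, for each gene in Cd73N (circles) and Cd73P (diamonds); bars are 95% intervals for counting error only and dashed lines mark 1.5-fold. Cdkn1a lies at 1.62 in Cd73N and at -1.07 in Cd73P, past the dashed line on either side.

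The fractions were then set side by side within each genotype. In WT, 5 of the 10 genes were lower in Cd73P (Cdkn1a, Cdkn2d, Cdkn2c, Cdkn2a and Trp53), with differences between -1.24 for Cdkn1a and -0.75 for Trp53. Cdkn1c and Mdm2 were higher, with differences of 0.94 (SE 0.068) and 0.70 (SE 0.043). Of all genes tested in WT, 27.9% were lower and 9.07% higher in Cd73P, and of the expressed genes 45.9% and 15.4%. The count of lower genes was thus near the share of expressed genes. In Ezh2-CKO, 6 of the 10 genes were lower in Cd73P (those of WT and Cdkn2b) and 1 was higher (Cdkn1c), beside 29.1% and 8.4% of all genes tested and 45.6% and 13.8% of expressed genes. The largest was Cdkn1a, at 3.68% of its Cd73N level (difference -3.93, SE 0.086), against 36.4% in WT. Cdkn2a in Cd73P was at 9.03% of its Cd73N level in Ezh2-CKO. Cdkn2b was at 23.3% in Ezh2-CKO and 19.4% in WT, where it was near the lower limit of detection. Cdkn1c had almost the same difference in both genotypes, 0.94 in WT and 0.96 in Ezh2-CKO, which correspond to 200.4% and 204% of the Cd73N level.

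Scaling the libraries to the median ratio of expressed genes shifts these fraction differences by 0.34 in WT and 0.27 in Ezh2-CKO, and scaling to the FPKM sum by 0.43 and 0.22. Cdkn1b and Rb1 in WT, at -0.11 and -0.14 without scaling, turned positive under both. Trp53 in WT, at -0.75 without scaling, came to -0.44 and -0.36 and was then no longer called lower. Cdkn2d in Ezh2-CKO, at -0.75 without scaling, came to -0.49 and -0.54 and was no longer called lower either. In bulk samples of a mixed fraction, fewer cells of a type and less RNA per cell cannot be told apart, which holds for all differences here.

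**Figure D3:**
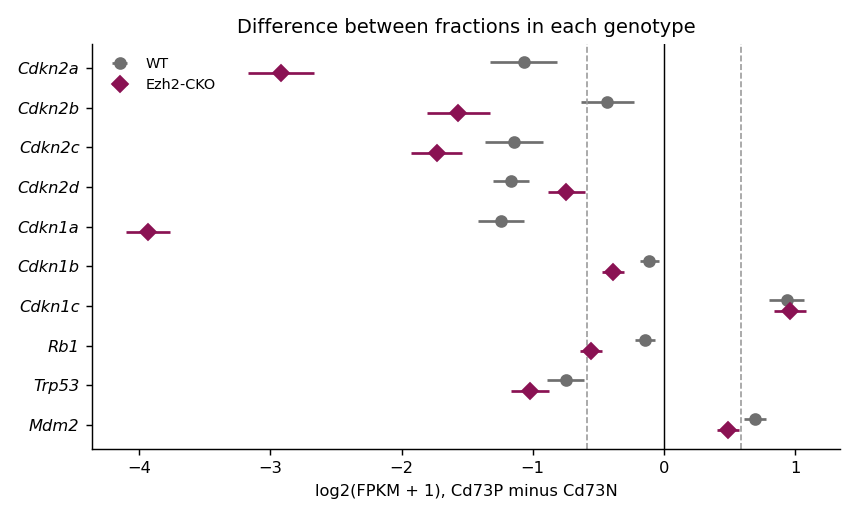
Difference between fractions, log2(FPKM + 1) in Cd73P minus Cd73N, for each gene in WT (circles) and Ezh2-CKO (diamonds); bars are 95% intervals for counting error only and dashed lines mark 1.5-fold. Cdkn1c and Mdm2 lie right of 0 in both genotypes, and Cdkn1a moves from -1.24 in WT to -3.93 in Ezh2-CKO.

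Markers of several retinal cell types also differed between genotypes, in both directions. Of 18 rod markers, 7 were lower in Cd73N Ezh2-CKO and 0 higher, beside 2.87% and 11.6% of expressed genes. In Cd73P 3 of the 16 tested were higher (median 0.32), beside 4.31%, with summed levels of 28400 FPKM in WT and 37611 in Ezh2-CKO. Of 6 pigment epithelium markers, 2 were lower in Cd73P Ezh2-CKO, beside 4.54%. Between fractions in WT, 5 of these 6 were higher in Cd73P, beside 15.4% of expressed genes. All 14 Müller glia markers were higher in Cd73N Ezh2-CKO, beside 11.6% of expressed genes, with a median difference of 2.102, and their summed level went from 1557 to 6720 FPKM. The largest were Aqp4 at 3.16 and Dkk3 at 2.89, the latter being the gene whose control drives the Cre. In Cd73P 11 of the 14 were higher (median 0.94), beside 4.31% of expressed genes, with a summed level of 312 FPKM in WT and 513 in Ezh2-CKO. Of 14 bipolar markers, 9 were lower in Cd73N and 11 in Cd73P, beside 2.87% and 4.54% of expressed genes. Of 11 cone markers, 3 were higher in Cd73N (median 0.33), beside 11.6% of expressed genes. In Cd73P 8 of the 11 cone markers were lower (median -0.99), beside 4.54%. Their summed level there was 440 FPKM in WT and 220 in Ezh2-CKO. Microglia markers had medians of 0.53 in Cd73N (4 of 9 higher) and 0.32 in Cd73P (0 of 9). Astrocyte markers had a median of 0.99 in Cd73N (3 of 5 higher), and Gfap, which reactive Müller glia also express, was at 2.86 and 11.4 FPKM there. In Cd73P, Ezh2-CKO Müller glia markers were at a median of 3.75% of their Cd73N level (range 2.17% to 48.4%) and microglia markers at 19.6% (range 15.0% to 24.7%). Cdkn2a at 9.03% and Cdkn2b at 23.3% lay above that Müller glia median. The top of the Müller glia range was Car2 alone, followed by Dbi at 10.7% and Clu at 10.2%. The other Müller glia markers lay between 2.17% and 5.44%. Cdkn2b was thus above every Müller glia marker but Car2, and Cdkn2a above all but Car2, Dbi and Clu. The same median in Ezh2-CKO was 26.6% for astrocyte, 4.12% for vascular, 2.29% for bipolar and 2.22% for cone markers. In WT it was 5.49% for bipolar and 6.65% for cone markers. The part of these cell types in the levels of the INK4 genes and of Cdkn1a was not tested.

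**Figure D4:**
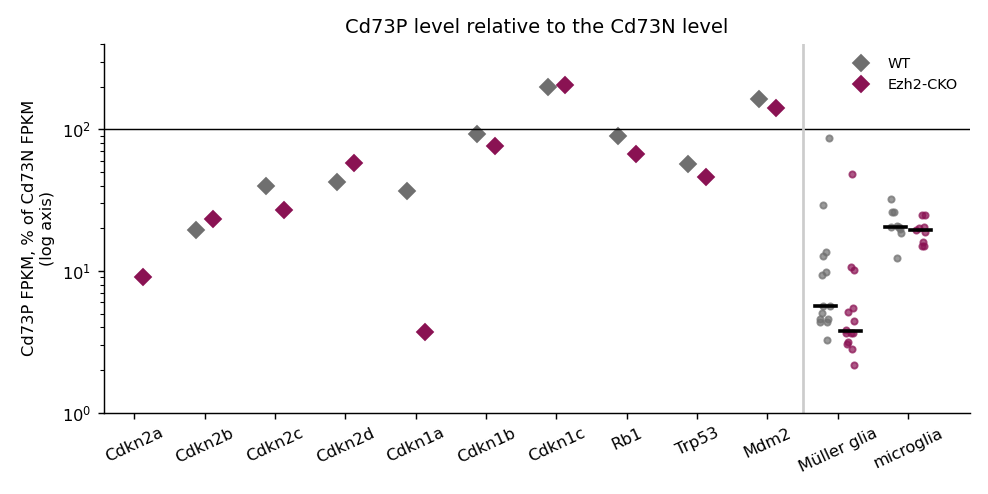
Cd73P FPKM as a percentage of Cd73N FPKM on a log axis, in WT (grey) and Ezh2-CKO (purple), for each gene (diamonds, without error bars) and for the Müller glia and microglia markers (1 circle per marker, black line at the median); Cdkn2a in WT was listed at 0 in Cd73P and is not drawn. Cdkn1a in Ezh2-CKO sits at 3.68%, and Cdkn1c near 200% in both genotypes.

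Genes around these inhibitors were counted from lists chosen by hand. Of 25 p53 target genes, which did not include Cdkn1a or Mdm2, 12 were higher and 0 lower in Cd73N Ezh2-CKO. Beside this, 7.18% of all genes tested and 11.6% of expressed genes were higher. The median difference of the p53 targets was 0.59 over the 24 that were expressed. The largest differences were those of Phlda3 (3.43 to 20.5 FPKM), which restrains Akt signalling, and the receptor gene Eda2r (0.08 to 2.88 FPKM). The antiproliferative gene Btg2 (52.4 to 189.8 FPKM) and the kinase gene Plk2 (6.26 to 23.4 FPKM) came next. In Cd73P 1 of the 25 was higher, Plk2 from 6.59 to 13.3 FPKM, beside 2.26% of all and 4.31% of expressed genes. There 0 were lower, and the median was -0.09. None of 12 regulators of p53 passed the threshold in either fraction. Mdm4, a partner of Mdm2, had differences of 0.32 in Cd73N and -0.41 in Cd73P.

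Immediate early genes, which cells switch on within minutes of a stimulus, also moved in Cd73N, where 12 of 18 were higher in Ezh2-CKO with a median of 1.57, beside 7.18% of all and 11.6% of expressed genes. Fosb went from 1.67 to 33.9 FPKM, Zfp36 from 3.63 to 55.6 and Fos from 53.3 to 465 FPKM. Btg2 stands on this list as well as on that of p53 targets. In Cd73P 3 of the 18 were higher and 2 lower, beside 2.26% and 2.39% of all genes tested. The median there was 0.23 over the 14 that were expressed. Fos had the largest difference and was higher, at 25.7 and 49.5 FPKM, and so was Zfp36, at 1.24 and 2.51 FPKM. Egr1 was lower in Cd73P, at 90.9 and 55.5 FPKM, and so was Jun, at 26.6 and 16.6 FPKM. Cdkn1a moved in the same direction as most of these genes in Cd73N. In Cd73P it was lower, as were Egr1 and Jun, while Fos and Zfp36 were higher. The part of such a response in the levels of Cdkn1a was not tested.

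Partners and downstream genes of the inhibitors were counted in the same way. Of 8 D- and E-type cyclins and their CDKs, 3 were higher in Cd73N Ezh2-CKO, beside 7.18% of all and 11.6% of expressed genes: Ccnd2 (0.675 to 2.26 FPKM), Cdk2 (1.07 to 2.91) and Ccnd1 (9.06 to 14.5). None passed the threshold in Cd73P. Among 12 pocket proteins and E2F factors, E2f5 (difference 0.72) and Tfdp2 (0.61) were higher in Cd73N, beside the same 7.18% and 11.6%. None of the 12 differed past the threshold in Cd73P. None of 20 E2F target genes passed the threshold between genotypes in either fraction. Only 12 of them were expressed in Cd73N (median -0.03) and 7 in Cd73P (median -0.11). A gene far under 1 FPKM can hardly pass the threshold on this scale, so the count says little about the others. Mki67 and Top2a, which mark cycling cells, were under 1 FPKM in all libraries, and they were named after their values were seen.

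Known regulators of the INK4-ARF locus were mixed. Of 12, 3 were higher in Cd73N Ezh2-CKO, beside 7.18% of all and 11.6% of expressed genes: Id1 (25.02 to 142 FPKM), Tbx3 (1.34 to 5.11) and the PRC1 gene Cbx7 (4.89 to 8.20). In Cd73P Id1 was again higher (3.35 to 5.61 FPKM), beside 2.26% of all and 4.31% of expressed genes. Tbx2 (4.34 to 1.90) and Cbx8 (18.8 to 11.2) were lower there, beside 2.39% and 4.54%. Bmi1, the PRC1 subunit best known for repression of Cdkn2a, was at 58.3 and 55.9 FPKM in Cd73N and at 38.9 and 50.5 in Cd73P, and was named after its values were seen.

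**Figure D5:**
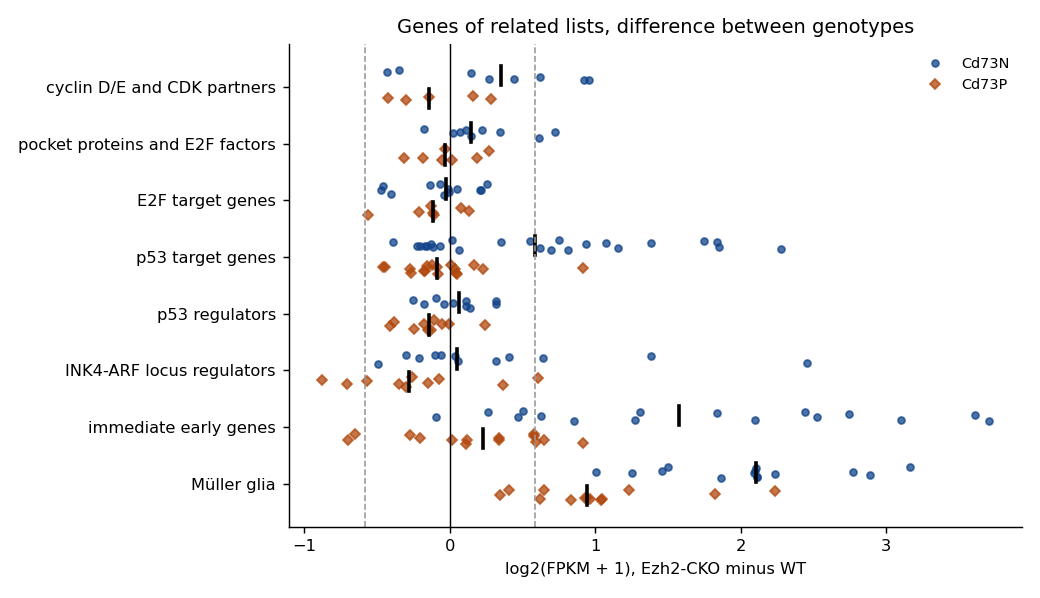
Difference between genotypes, log2(FPKM + 1) in Ezh2-CKO minus WT, for single genes of 8 lists in Cd73N (circles) and Cd73P (diamonds), expressed genes only; black lines are medians and dashed lines mark 1.5-fold. Müller glia markers and immediate early genes have Cd73N medians of 2.102 and 1.57, p53 target genes 0.59, and E2F target genes -0.03.

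The genes whose levels over the 4 libraries lay nearest to those of Cdkn2a, by Euclidean distance of log2(FPKM + 1) among 21514 single-row genes, were Sphk1, Plekho2, Syt15, 1190002H23Rik and Folh1. Their distances ran from 0.88 to 1.10. Sphk1, the nearest, was at 2.49 FPKM in Cd73N WT, 21.6 in Cd73N Ezh2-CKO, 0.11 in Cd73P WT and 1.09 in Cd73P Ezh2-CKO. All 5 had their highest level in Cd73N Ezh2-CKO, which the choice by distance itself brings about.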

How the data were processed

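Poly(A) RNA was sequenced from 4 libraries as 36-base single-end reads. Per the study's methods and the submitters' processing notes, the authors aligned reads to mm9 with TopHat 2.0.8b (coverage search, at most 50 hits for a read) and obtained FPKM over RefSeq genes with Cufflinks 2.1.1. The deposited tables held FPKM and its lower and upper bounds for 23021 rows per library, without read totals or scaling between libraries.

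Rows of 1 symbol were summed and 730 small RNA symbols left out (21828 genes). Only genes with OK status in both libraries of a comparison entered it. The 10 genes and all lists were chosen with earlier results of these data known. All 10 genes were named, and of each other list at most the 4 largest differences with FPKM of at least 1, unless stated. The width of the bounds was taken as 4 SE. The counting rule was tested on simulated counts with Poisson error only, in which the changed genes were all well expressed. That test does not cover changes of low genes or differences between animals. Relative depth is the inverse of the commonest FPKM ratio to Cd73N WT over single-row genes below 0.05 FPKM in both libraries, which 121 of 951, 80 of 817 and 87 of 852 such genes shared. Absolute depth is unknown. Alternatives were other pseudocounts, scalings, thresholds and filters; the single Cdkn2d row and the list counts were added after the data were seen. Python 3.11.15, numpy 2.4.6 and pandas 2.3.3 were used.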

Additional observations from a re-analysis of the deposited data

Results flagged for a closer look

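The values below moved in opposite directions in the fractions by more than 2 counting SE in each. With single libraries per group, neither gap was tested. For Cdkn1a the genotype difference was 1.62 in Cd73N and -1.07 in Cd73P, a gap of -2.69 (SE 0.12). For Rb1 it was 0.11 in Cd73N and -0.30 in Cd73P, a gap of -0.41 (SE 0.057), and neither Rb1 value passed the 1.5-fold threshold.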

How the results depend on the processing

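No paired analysis was possible because each group had 1 library and the labels carry no replicate numbers; pairing the fractions would take the genotypes as replicates of each other. The counts of 4 genes higher and 0 lower in Cd73N Ezh2-CKO stayed within 1.5 times under each alternative. In Cd73P, a pseudocount of 5 left 0 genes higher and 0 lower, and the ratio without pseudocount gave 1 higher (Cdkn2c), since Cdkn2a and Cdkn2b were under 1 FPKM in WT. Between fractions in WT, a pseudocount of 5 gave 3 genes lower in Cd73P, each scaling 4 (without Trp53), and the 2-fold threshold 0 higher. Between fractions in Ezh2-CKO, median scaling and sum scaling each gave 2 higher and 5 lower (without Cdkn2d), and the 2-fold threshold 0 higher. No called gene changed direction under another pseudocount or scaling. Values under the threshold that changed sign were Cdkn1b and Cdkn1c in Cd73N, Cdkn1c and Cdkn2d in Cd73P, and Cdkn1b and Rb1 between fractions in WT. Of 25 p53 target genes, 6 were higher in Cd73N with a pseudocount of 5 and 7 at 2-fold. The cause was not tested. The WT levels of Cdkn2a and Cdkn2b rest on few fragments, which limits their folds.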

Other observations

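Between fractions in WT, the genes around the inhibitors did not all lie on the Cd73N side. Of 12 p53 regulators, 4 were higher in Cd73P and 0 lower, beside 15.4% and 45.9% of expressed genes: the deacetylase gene Sirt1 (12.0 to 38.2 FPKM), the acetyltransferase genes Ep300 (7.89 to 22.2) and Crebbp (4.43 to 8.21), and Mdm4 (7.32 to 18.0). Gadd45a, a p53 target, was at 25.7 FPKM in Cd73N and 105 in Cd73P, while Bbc3 was at 6.67 and 0.91 FPKM.

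Of 8 cyclins and CDKs, 5 were lower in Cd73P WT, beside 27.9% of all and 45.9% of expressed genes, led by Cdk4 (85.6 to 14.6 FPKM) and Ccnd1 (9.06 to 1.07). Of 20 E2F target genes, 9 were lower, which is near the share of expressed genes, among them Mcm6 (7.83 to 0.90 FPKM), and 1 was higher, Ccna2 (1.41 to 7.01 FPKM). E2f3 was higher in Cd73P, at 19.1 against 3.99 FPKM, and E2f1 lower, at 0.23 against 2.28 FPKM. None of these differences has a replicate check.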
